A study of Mus musculus with 14 samples.

Results

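The SOCS family, the suppressors of cytokine signalling, was followed by RNA sequencing in CD4 T cells of mice. Its 8 genes, Cish and Socs1 to Socs7, were chosen by symbol from 20875 genes listed for a culture experiment and 18855 genes listed for an experiment in mice. All 8 were present in both tables, and all 8 passed the filter for testing, a mean of at least 1 TPM (transcript abundance scaled to a fixed total per library) over the libraries of the experiment. In culture, wild type C57BL/6 CD4 T cells, labelled as lymph node cells, were kept in RPMI medium alone (n = 2), with antibodies to CD3 and CD28 (n = 3), or with those antibodies and TRAIL (n = 3). TRAIL is the ligand encoded by Tnfsf10, which binds a death receptor. As labelled, each antibody was used at 1 mg/ml. TRAIL was used at 10 ug/ml. The length of culture is not given in the sources used here. For the experiment in mice, CD4 T cells were from the spleen of C57BL/6 animals of genotype TRAIL-R f/f given vehicle (n = 1), TRAIL-R f/f given TRAIL (n = 3), and Lck Cre TRAIL-R f/f given TRAIL (n = 2). All 3 of these groups carried the floxed receptor, and Cre under an Lck promoter acts in the T cell lineage. The title of the series names experimental autoimmune encephalomyelitis, but no sample label says whether mice were immunised, and age, dose and route are not given in the sources used here. The bracketed name of the vehicle library is B6_spleen, and that of Lck Cre replicate 1 carries no mark for TRAIL, so both groups rest on titles alone. No label says that replicates were separate cultures or animals, so p-values measure only the spread between libraries.

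Cytokines that bind class I and class II receptors activate JAK kinases, which phosphorylate the receptor and then STAT transcription factors. STATs in turn induce several SOCS genes, whose proteins bind phosphorylated receptors or kinases through an SH2 domain and close a negative feedback loop. A C-terminal SOCS box recruits elongins and a cullin to ubiquitinate the bound protein. CIS, encoded by Cish, occupies STAT5 docking sites on receptors and restrains interleukin 2 and T cell receptor signals in T cells. SOCS1 and SOCS3 also block JAK catalysis directly, with SOCS1 acting mainly on interferon and common gamma chain cytokines and SOCS3 on receptors of the gp130 type. SOCS2 is best known for limiting growth hormone signalling, SOCS4 and SOCS5 for effects on the epidermal growth factor receptor, and SOCS6 and SOCS7 for binding in insulin and receptor tyrosine kinase pathways.

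The start regions of Cish, Socs1 and Socs3 are shown first. These 3 members were higher than in medium in cells stimulated with TRAIL present, and their start regions hold the letters of STAT and interferon response elements. RefSeq start regions on build GRCm38.p6 were held for 4 of the 8 members, Cish, Socs1, Socs3 and Socs4. In each, the 250 bases before the start and the 50 after it were searched on both strands for TTCNNNGAA, the palindromic STAT element, and for GAAANNGAA, the core of an interferon-stimulated response element. Each stretch below runs 5′ to 3′ along the gene from 200 bases before the start to 30 bases after it, in lower case with every match in capitals. Cish lies at chr9:107296459-107296688 on the plus strand, Socs1 at chr16:10785507-10785736 on the minus strand and Socs3 at chr11:117969337-117969566 on the minus strand.
Cish: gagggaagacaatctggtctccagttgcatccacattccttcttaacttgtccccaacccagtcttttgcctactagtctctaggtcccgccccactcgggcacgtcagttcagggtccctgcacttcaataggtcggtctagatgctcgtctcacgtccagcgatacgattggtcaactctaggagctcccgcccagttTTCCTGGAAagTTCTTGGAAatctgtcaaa
Socs1: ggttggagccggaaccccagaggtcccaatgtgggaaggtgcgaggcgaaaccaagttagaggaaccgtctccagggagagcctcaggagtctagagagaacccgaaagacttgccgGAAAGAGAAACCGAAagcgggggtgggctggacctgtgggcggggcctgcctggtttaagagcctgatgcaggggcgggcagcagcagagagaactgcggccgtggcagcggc
Socs3: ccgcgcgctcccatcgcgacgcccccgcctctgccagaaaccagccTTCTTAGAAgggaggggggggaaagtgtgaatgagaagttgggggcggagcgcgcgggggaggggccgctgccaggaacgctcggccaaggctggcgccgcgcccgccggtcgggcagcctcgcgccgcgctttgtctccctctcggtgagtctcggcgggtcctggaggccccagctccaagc
Cish held 2 STAT elements, TTCCTGGAA beginning at base 1 after the start and TTCTTGGAA beginning at base 12. Socs3 held 1, TTCTTAGAA, beginning 154 bases before the start. Socs1 held none, but held 2 overlapping response element cores, GAAAGAGAA and GAAACCGAA, beginning 83 and 77 bases before the start. Neither motif was found in the Socs4 window, nor the response element core in those of Cish and Socs3. Among 32851 windows of the same length, 8.30% held the STAT element and 8.56% the response element core. These matches are letters in a window and were not tested as binding sites.

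Reads recovered from TPM and gene length came to 23.03 to 32.29 M per culture library and 19.2 to 56.9 M per mouse library. The thinnest member had 509 reads in culture (Socs5) and 97 in mice (Socs2), and no member was at 0. Cd4 and Cd3e were present in every library, and so were markers of other cell types. In culture, the summed TPM of 10 B cell markers was 1438 to 1461 in medium, 216 to 269 with antibodies and 1323 to 1356 with antibodies and TRAIL. The summed TPM of macrophage and monocyte markers was 1188 to 1279, 41.6 to 47.1 and 393 to 475 in the same order. In mice, neutrophil markers summed to 17660 to 96566 TPM, against 598 to 2177 for T cell markers. Tnfrsf10b, which encodes the mouse TRAIL receptor, was not lower in the libraries labelled Lck Cre, at 2.04 and 3.498 TPM, than in the floxed libraries given TRAIL, at 1.46 to 2.31 TPM, or in the vehicle library, at 1.82 TPM. The Lck Cre libraries are therefore named below only by their label.

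Socs3 had the highest TPM of the 8 genes in all 14 libraries. In medium it stood at 462 and 553 TPM, with a mean of 507 ± 64.4 (SD, n = 2), and made up 67.2% of the family's summed TPM. Socs4 followed at 70.0 ± 6.35 TPM and Socs2 at 56.8 ± 0.717 TPM. Cish at 29.7 ± 1.57, Socs1 at 27.2 ± 1.93 and Socs6 at 25.5 ± 2.55 TPM lay close together, and the ranges of Socs1 and Socs6 overlapped. Socs5 at 19.98 ± 0.326 TPM and Socs7 at 16.5 ± 0.0461 TPM were lowest. TPM depends on the gene length used. The deposited lengths ran from 0.35 (Socs6) to 0.98 (Socs1) of the longest annotated transcript, with 0.43 for Socs3 and 0.46 for Cish. Expressed per longest transcript, Socs3 stayed first in every group. In medium Socs1 then moved from place 5 to place 3 and Socs7 from place 8 to place 5. Cish moved from place 4 to place 6, Socs2 from place 3 to place 4 and Socs6 from place 6 to place 8, the lowest. Differences between groups for 1 gene do not depend on that length.

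**Figure D1:**
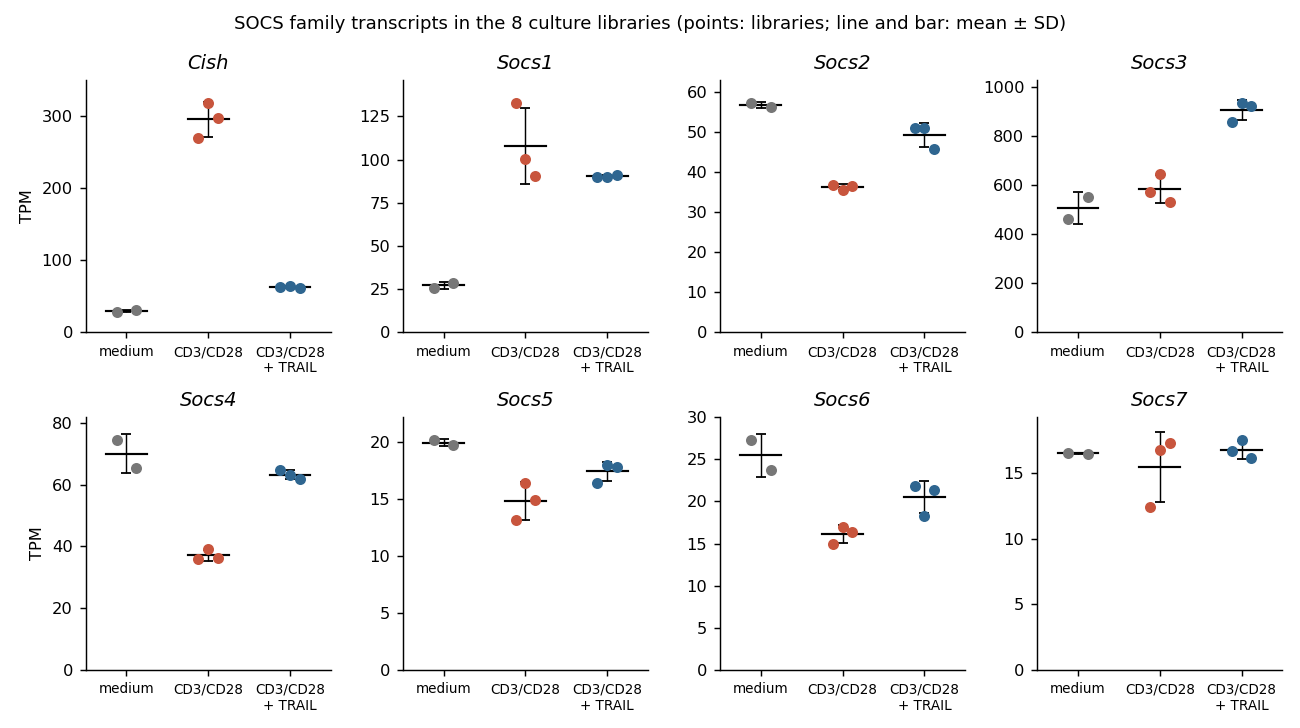
TPM of each SOCS family gene (vertical axes, each from 0) in the 8 culture libraries, by group on the horizontal axis. Points are libraries, and lines and bars are the mean and SD. Cish was at 270 to 319 TPM with CD3 and CD28 antibodies, at 61.0 to 64.8 with TRAIL added and at 28.6 and 30.8 in medium, with no overlap between groups.

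Transcripts of Cish and Socs1 were higher after stimulation through CD3 and CD28 than in medium. Cish stood at 28.6 and 30.8 TPM in medium and at 270, 319 and 298 TPM in the 3 stimulated libraries. The groups were far apart, and the mean rose 9.96-fold, from 29.7 ± 1.57 to 296 ± 24.3 TPM. The log2 difference was 3.27 ± 0.082 (SE) with adjusted p = 4.19e-08, the 70th highest of 14035 genes tested. All p-values here are from limma on log2(TPM + 1), adjusted over all tested genes by the Benjamini-Hochberg method with a threshold of 0.05. In bulk RNA, fewer cells of a type and less RNA per cell cannot be told apart. Socs1 was at 25.8 and 28.6 TPM in medium and at 133, 100 and 90.5 TPM after stimulation. All stimulated libraries were higher, and the mean rose 3.97-fold to 108 ± 22.2 TPM (log2 difference 1.93 ± 0.145, adjusted p = 6.50e-06). The spread of Socs1 among the stimulated libraries was wide, with replicate 1 above the others.

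The remaining members moved little or fell. Socs2 had 57.4 and 56.3 TPM in medium and 36.8, 35.6 and 36.5 TPM after stimulation, a fall of 0.63 on the log2 scale (adjusted p = 6.74e-05). Socs4 had 74.5 and 65.5 TPM in medium and 36.05, 39.3 and 36.2 TPM after stimulation, where all 3 libraries were lower (log2 difference -0.89, adjusted p = 1.50e-05). Socs6 fell from 25.5 ± 2.55 to 16.1 ± 1.05 TPM (-0.63, adjusted p = 7.90e-04) and Socs5 from 19.98 ± 0.326 to 14.8 ± 1.64 TPM (-0.41, adjusted p = 0.00586). Socs3 did not pass, with 573, 647 and 533 TPM after stimulation against 462 and 553 TPM in medium (0.20, adjusted p = 0.108), and the groups overlapped. Socs7 had 12.4, 16.7 and 17.3 TPM against 16.5 and 16.5 TPM (-0.10, adjusted p = 0.498).

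In all, 2 of 8 members were higher and 4 were lower, where 27.5% of all tested genes were higher and 49% lower. The median difference of the 8 was -0.26, beside -0.32 for all genes tested. Because so much of the transcriptome changed, the scale matters. Rescaling TPM by the median of ratios raised every gene's log2 difference in this comparison by a median of 0.38, and the share of called genes that were higher went from 35.9% to 52.6%. On the rescaled values 4 members were higher and 3 lower. Cish (3.66) and Socs1 (2.32) remained far above 0, and Socs2 (-0.25, adjusted p = 0.0347), Socs4 (-0.51, adjusted p = 4.01e-04) and Socs6 (-0.25, adjusted p = 0.0400) remained lower. Socs3 became higher (0.60, adjusted p = 0.00198), Socs7 turned from -0.10 to 0.27 (adjusted p = 0.0299), and Socs5 lost its call (-0.04, adjusted p = 0.676). The authors' deposited table gives log2 fold changes of 3.70 for Cish, 2.36 for Socs1 and 0.60 for Socs3 in this comparison. By the authors' adjusted p at a threshold of 0.05, Cish, Socs1, Socs3 and Socs7 (0.28) were higher. Socs2 (-0.26), Socs4 (-0.52) and Socs6 (-0.27) were lower there, and Socs5 (-0.04) was not called. Of the authors' 20875 genes, 13061 passed that threshold.

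**Figure D2:**
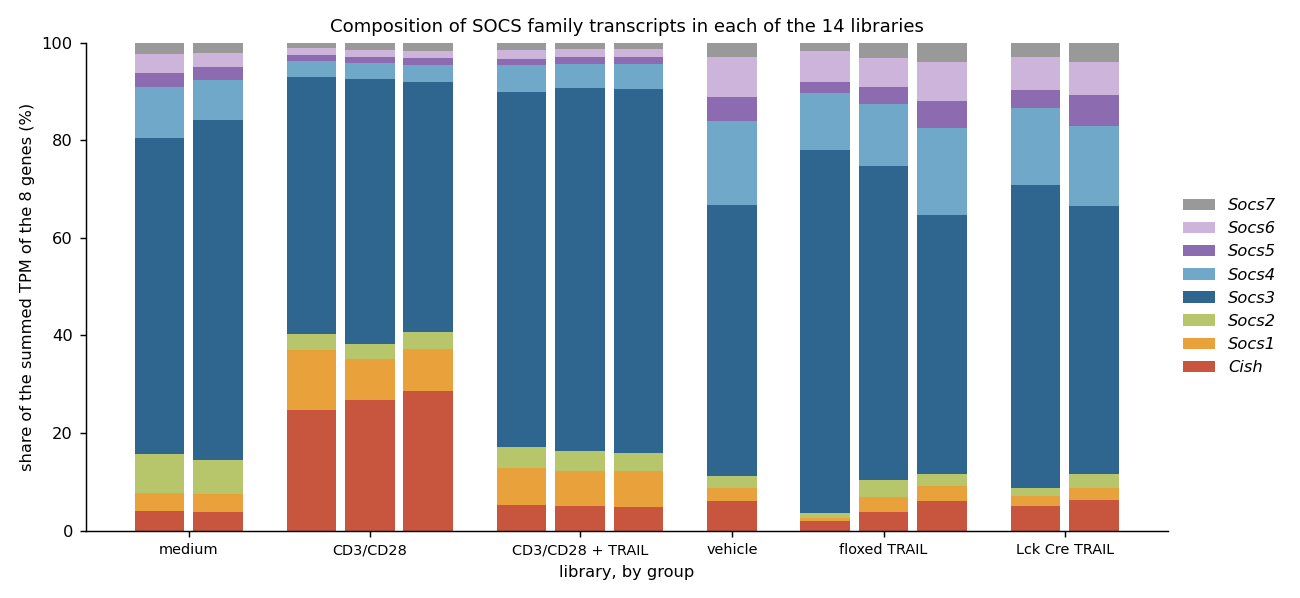
Share of each gene in the summed TPM of the 8 SOCS family genes (vertical axis, percent) in each of the 14 libraries, in groups along the horizontal axis. Cish made up 26.7% with CD3 and CD28 antibodies, 5.12% with TRAIL added and 3.95% in medium, as group means.

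The summed TPM of the family was 753 ± 57.9 in medium, 1108 ± 75.6 after stimulation and 1226 ± 39.6 after stimulation with TRAIL. Its make-up differed between the groups. Socs3 gave 67.2% of the sum in medium, 52.7% after stimulation and 73.8% with TRAIL. The share of Socs1 was 3.61%, 9.77% and 7.38% in the same order. After stimulation the order was Socs3, Cish and Socs1, with ranges apart from each other and from the rest, then Socs4 and Socs2, whose ranges overlapped, and then Socs6, Socs7 and Socs5, whose ranges also overlapped.

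The second culture comparison asks what TRAIL did to the stimulated cells. With TRAIL present Cish stood at 62.6, 64.8 and 61.0 TPM, against 270, 319 and 298 TPM without it. The 3 libraries with TRAIL lay close together and all below the others. The mean was 4.71-fold lower, at 62.8 ± 1.88 against 296 ± 24.3 TPM (log2 difference -2.21 ± 0.073, adjusted p = 1.08e-07), the 148th lowest of all tested genes. Socs1 was at 89.8, 90.1 and 91.4 TPM with TRAIL, 2 just below the range of 90.5 to 133 TPM without it and 1 inside. Its difference did not pass (-0.23, 95% interval -0.53 to 0.07, adjusted p = 0.133). On rescaled values Socs1 was lower (-0.55, adjusted p = 0.0189), as it was without stimulated replicate 3 (-0.35, adjusted p = 0.0322).

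Socs3, the main inhibitor of gp130-type receptors, was at 859, 935 and 922 TPM with TRAIL, all above the 533 to 647 TPM without it. The mean rose 1.55-fold to 905 ± 41.1 TPM (0.63 ± 0.094, adjusted p = 3.67e-04; 0.31 and adjusted p = 0.0264 on rescaled values). Socs4 was at 64.7, 63.3 and 61.8 TPM with TRAIL, against 36.05 to 39.3 TPM, and rose 1.70-fold (0.75 ± 0.069, adjusted p = 2.20e-05; 0.44 on rescaled values). Socs2 was at 51.1, 51.1 and 45.8 TPM with TRAIL, against 35.6 to 36.8 TPM (0.43, adjusted p = 3.47e-04), but the call was lost on rescaled values (0.12, adjusted p = 0.216). Socs6 rose from 16.1 ± 1.05 to 20.5 ± 1.89 TPM (0.33, adjusted p = 0.0136), a call that was lost on rescaled values (0.02, adjusted p = 0.828). Without TRAIL replicate 1 or 3 Socs6 had adjusted p = 0.0536 and 0.0507. Socs5 passed narrowly (0.22, adjusted p = 0.0497) and turned to -0.08 on rescaled values. Socs7 did not pass (0.12, adjusted p = 0.372) and turned to -0.18 on rescaled values.

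With TRAIL added, 5 of 8 members were higher and 1 was lower, where 48.1% of tested genes were higher and 28.6% lower, and the median of the members was 0.28 beside 0.25 for all genes. Rescaling moved all genes by a median of -0.31 and took the share of called genes that were higher from 62.7% to 48.1%. It left 2 members higher, Socs3 and Socs4, and 2 lower, Cish and Socs1. By the authors' deposited log2 fold changes and adjusted p at 0.05, Socs3 (0.32) and Socs4 (0.45) were higher with TRAIL added. Cish (-2.55) and Socs1 (-0.55) were lower there. Socs2 (0.12), Socs5 (-0.08), Socs6 (0.03) and Socs7 (-0.19) were not called by the authors, where 12916 of 20875 genes were. All 10 B cell markers and all 10 macrophage and monocyte markers tested fell with stimulation, with medians of -2.94 and -2.72. All of them were higher with TRAIL added than without it, with medians of 2.54 and 2.39, although on rescaled values 1 macrophage and monocyte marker was not called. Lyz2, a myeloid gene, was at 720 and 774 TPM in medium, 5.05 to 7.59 TPM after stimulation and 146 to 179 TPM with TRAIL. Their part in the values of the SOCS genes was not tested.

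**Figure D3:**
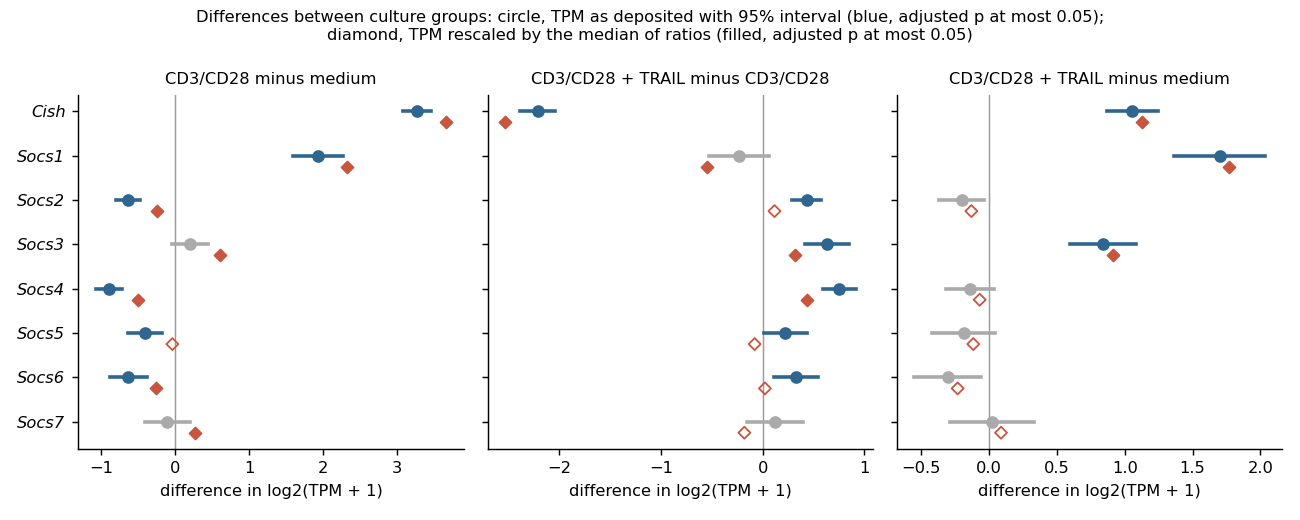
Difference in log2(TPM + 1) (horizontal axes) of each SOCS family gene (vertical axis) in the 3 culture comparisons. Circles and lines give deposited TPM with the 95% interval and diamonds give rescaled TPM. Cish is at 3.27, -2.21 and 1.06, and Socs1 at 1.93, -0.23 and 1.70.

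Set against medium, 3 members were higher in cells stimulated in the presence of TRAIL. Socs1 showed the largest difference of the 3, at 89.8 to 91.4 TPM against 25.8 and 28.6 TPM, a rise of 3.32-fold (log2 difference 1.70 ± 0.145, adjusted p = 2.10e-04), the 85th highest of all tested genes. Cish was 2.12-fold higher (1.06 ± 0.082, adjusted p = 1.26e-04), and its 3 libraries at 61.0 to 64.8 TPM lay above both medium libraries. Socs3 was 1.78-fold higher (0.84 ± 0.105, adjusted p = 0.00144), at 905 ± 41.1 against 507 ± 64.4 TPM. Socs2 (-0.20, adjusted p = 0.0916), Socs4 (-0.14, adjusted p = 0.261), Socs5 (-0.19, adjusted p = 0.255), Socs6 (-0.30, adjusted p = 0.0945) and Socs7 (0.02, adjusted p = 0.946) did not pass. The 3 members were higher and 0 lower, where 7.25% of tested genes were higher and 9.93% lower. The same counts of 3 and 0 were found on rescaled values, on which the shift of all genes was 0.07 and 55.2% of called genes were higher in place of 42.2%. The 3 culture comparisons share libraries, so their values are set side by side and were not tested against each other. The order with TRAIL was Socs3, Socs1, Socs4 and Cish, the last 2 overlapping, then Socs2, Socs6, Socs5 and Socs7.

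The other genes of the pathway were taken from lists. These lists were chosen with earlier results of these data known, so their counts only describe the genes chosen. Beside the counts that follow stand the shares over all tested genes, 27.5% higher and 49% lower after stimulation and 48.1% higher and 28.6% lower with TRAIL added. Of the 16 cytokine ligands tested, 14 were higher and 2 lower after stimulation (median 2.56). With TRAIL added 2 were higher and 13 lower than without it (median -1.16). Il21, a ligand that signals through the common gamma chain, went from 0.176 ± 0.0894 TPM in medium to 433 ± 9.19 TPM after stimulation (8.53, adjusted p = 2.28e-09) and was at 0.898 ± 0.0901 TPM with TRAIL. Lif, a gp130 ligand, was at 1.85 ± 0.269, 110 ± 8.37 and 4.05 ± 0.195 TPM in the same order. Ifng, a known inducer of Socs1, rose by 4.64 on the log2 scale with stimulation and was lower with TRAIL added than without it (-0.70, adjusted p = 0.00770). It was 3.95 higher on the log2 scale with TRAIL than in medium (47.8 ± 8.82 against 2.13 ± 0.180 TPM, adjusted p = 1.33e-05). Il12b, from antigen-presenting cells, fell with stimulation (-2.97) and was higher with TRAIL than without it (1.29 ± 0.315 against 0.0519 ± 0.0461 TPM, adjusted p = 1.50e-04). Il12a fell with stimulation (-0.74) and was higher with TRAIL added (1.86).

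Receptor chains moved in both directions. Of 24 tested, 7 were higher and 15 lower after stimulation, against 27.5% and 49% of all tested genes. With TRAIL added 17 were higher and 7 lower, against 48.1% and 28.6%. Il2ra, the high-affinity chain for interleukin 2, was lower with TRAIL added, with a log2 difference of -2.86 (124 ± 5.77 against 906 ± 123 TPM, adjusted p = 1.40e-07). Il12rb2, a chain of the interleukin 12 receptor, rose by 4.84 on the log2 scale with stimulation and was lower with TRAIL added (-2.39). Its partner Il12rb1 rose by 4.14, and Il9r, the interleukin 9 receptor chain, fell (-2.64). Il7r, the interleukin 7 receptor chain, fell from 774 ± 60.0 to 42.9 ± 5.69 TPM with stimulation and was at 443 ± 17.8 TPM with TRAIL. Ifngr1, which binds interferon gamma, was at 1099 ± 31.1 TPM with TRAIL and 172 ± 10.0 TPM without it.

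Among the kinases and transcription factors, Jak1 fell from 1037 ± 10.1 to 326 ± 61.1 TPM with stimulation (-1.68, adjusted p = 1.25e-05) and was at 742 ± 12.7 TPM with TRAIL. Of 4 JAK genes, 2 rose and 2 fell with stimulation on deposited and on rescaled values. Jak2 (0.57) and Jak3 (0.43) rose and Tyk2 (-0.90) fell. With TRAIL added Tyk2 was higher (0.72) and Jak2 lower (-0.38). Stat5a, which acts downstream of interleukin 2, rose from 59.1 ± 1.85 to 207 ± 26.5 TPM (1.79, adjusted p = 1.53e-06). It was lower with TRAIL added, at 89.2 ± 1.81 TPM (-1.20, adjusted p = 7.91e-06). Stat5b was at 192 ± 3.36 TPM in medium and 103 ± 19.8 TPM after stimulation (-0.92), and was higher with TRAIL added (0.98). Stat4 fell from 99.2 ± 4.93 to 24.96 ± 2.74 TPM with stimulation (-1.95). Of the 7 STAT genes, 6 were higher and 1 lower with TRAIL added. Stat2, which acts downstream of type I interferon, was at 323 ± 22.6 TPM with TRAIL against 77.0 ± 19.6 TPM without it (2.09, adjusted p = 1.29e-05).

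Of 15 STAT5 targets, 11 were higher and 1 lower after stimulation (median 1.24), and 2 were higher and 11 lower with TRAIL added (median -0.75). Gzmb, which encodes granzyme B, was at 13.3 ± 1.11, 1567 ± 48.2 and 61.9 ± 5.99 TPM in medium, with antibodies and with antibodies and TRAIL. Foxp3, the regulatory T cell factor, fell with stimulation (-1.24) and was higher with TRAIL added (1.34), as was Il4ra (0.51). Of 15 STAT3 targets, one of which is Socs3 itself, 8 were higher and 4 lower after stimulation, and 5 were higher and 7 lower with TRAIL. Bcl6, a STAT3 target of helper cells, was at 54.6 ± 0.441, 5.65 ± 1.01 and 58.8 ± 2.29 TPM in the 3 groups. Il6st, which encodes gp130, fell (-1.80) and was higher with TRAIL added (1.46), while Hif1a rose (2.58) and was lower with TRAIL added (-2.05).

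Of 10 genes listed for SOCS-box and VHL ubiquitin ligases, 6 were higher and 2 lower after stimulation (median 0.57). With TRAIL added 2 were higher and 7 lower (median -0.52). Elob and Eloc, the elongins that bind the SOCS box, were lower with TRAIL added, with log2 differences of -0.99 and -0.92 (adjusted p = 4.83e-04 and 3.35e-04). Nedd8, the modifier that activates cullins, rose from 115 ± 10.6 to 244 ± 34.02 TPM with stimulation, and Cul2 rose by 1.05 on the log2 scale. Arih2 fell (-0.57) and was higher with TRAIL added (0.56). Vhl moved the same way (-0.62 and 0.35), but neither of its calls was kept on rescaled values. A list of 14 genes named other brakes on JAK and STAT also held Sh2b1 and Ptpn11, which are not simply brakes. Of these 14 genes, 3 were higher and 7 lower after stimulation, and 8 were higher and 1 lower with TRAIL added. On rescaled values these counts were 7 higher and 6 lower, and 6 higher and 6 lower, and the median of the first comparison turned from -0.16 to 0.23. Pias3 (-1.51) and Cbl (-1.50) fell with stimulation, and Pias3 (1.31) and Pias1 (1.29) were higher with TRAIL added. Ptpn2, a phosphatase that acts on JAK and STAT proteins, rose from 74.7 ± 4.35 to 176 ± 7.42 TPM (1.22, adjusted p = 1.14e-06) and was lower with TRAIL, at 94.2 ± 2.66 TPM (-0.89). Usp18, which limits type I interferon receptor signals, was at 15.7 ± 1.29, 45.9 ± 6.85 and 76.2 ± 6.87 TPM in the 3 groups. Of 14 other SOCS-box proteins tested, 2 were higher and 6 lower after stimulation, and 8 were higher and 2 lower with TRAIL, beside 27.5% and 49% and then 48.1% and 28.6% of all tested genes. Their medians, -0.16 and 0.20, turned to 0.18 and -0.07 on rescaled values, with 5 higher and 2 lower and then 3 higher and 5 lower. Spsb1 (1.02) and Asb2 (0.85) rose with stimulation and were lower with TRAIL added (-0.32 and -0.19), and Asb13 (-1.70) and Spsb2 (-1.67) fell and were higher with TRAIL added (2.38 and 1.51).

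Over all tested genes 2411 were called for TRAIL against medium, 10741 for stimulation against medium and 10765 for TRAIL added, so counts in the lists are read beside 7.25% higher and 9.93% lower. Of the cytokine ligands 10 were higher and 1 lower, and Csf2 was among the higher (2.11) and Il12b the lower (-1.85). Of the receptor chains 10 were higher and 5 lower, with Il12rb2 (2.45) and Il12rb1 (1.77) at one end and Il9r (-0.81) and Il7r (-0.80) at the other. None of the 4 JAK genes passed, where 1 was higher and 1 lower on rescaled values, and 3 of 7 STAT genes were higher, Stat2 among them (1.89). Of the STAT5 targets 8 were higher, among them Gzmb (2.14) and Ccnd2 (0.94), and 1 was lower, Pim2 (-0.31, not called on rescaled values). Of the STAT3 targets 5 were higher, Socs3 and Bcl3 (0.72) among them, and 1 was lower, Fos (-1.32). Among the genes listed as brakes, the ligases and the other SOCS-box genes, 3, 1 and 3 were higher and none lower. These included Usp18 (2.21), Ptpn1 (0.38), Cul2 (0.29), Spsb1 (0.71) and Asb13 (0.67).

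**Figure D4:**
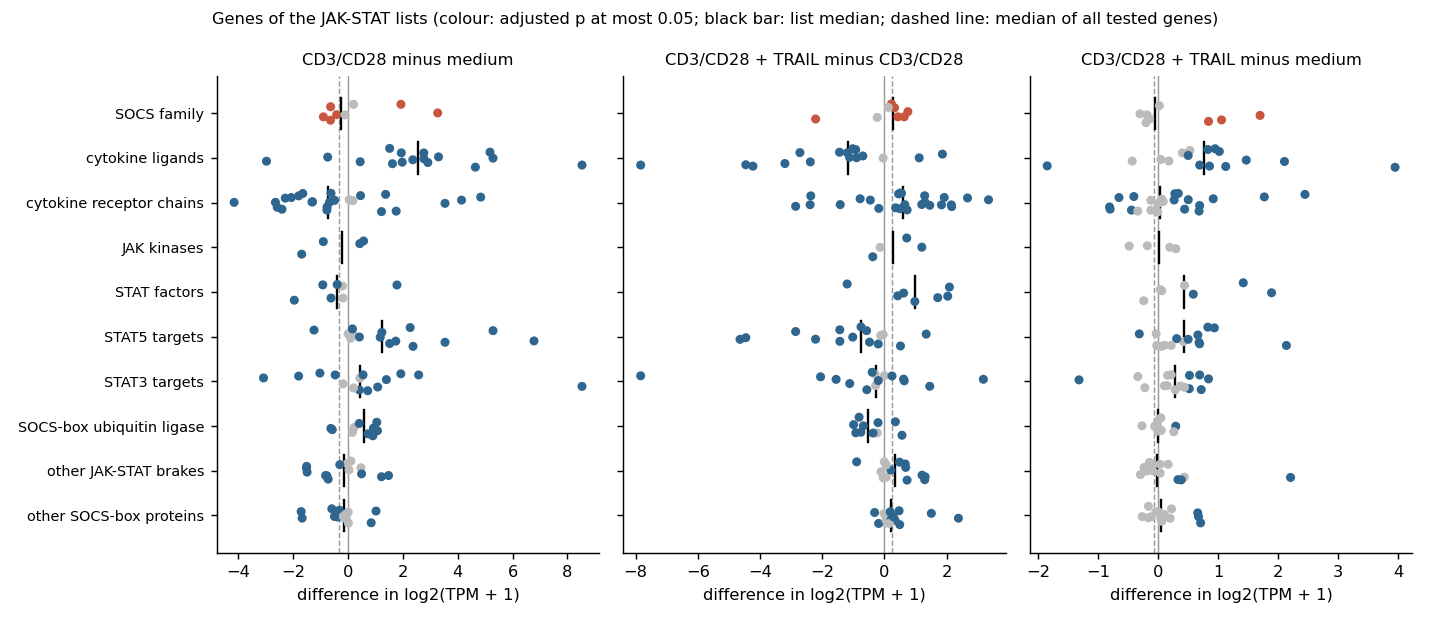
Difference in log2(TPM + 1) (horizontal axes) of the tested genes of each JAK-STAT list (vertical axis) in the 3 culture comparisons. Coloured points passed the test, black bars are list medians and the dashed line is the median of all tested genes. Cytokine ligands have medians of 2.56, -1.16 and 0.76, and STAT5 targets 1.24, -0.75 and 0.42. The lists were chosen with earlier results of these data known.

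Among the members, Socs2, Socs4, Socs6 and Socs5 followed the reverse of Cish over the 8 culture libraries. Pearson's r on log2(TPM + 1) was -0.98, -0.97, -0.92 and -0.86 in that order, and -0.33 for Socs7. Cish and Socs1 had r = 0.76, and Cish and Socs3 r = -0.10. These values describe 8 libraries that fall into 3 groups on 1 lane, so they mostly compare group means. On rescaled values with TRAIL added Socs2 (0.12), Socs5 (-0.08) and Socs6 (0.02) were not called. Socs4 kept its calls with stimulation (-0.51) and with TRAIL added (0.44). The r values are on deposited TPM, and how many of all genes ran opposite to Cish was not counted. The same measure was taken over 6321 tested genes with a range of at least 1 on the log2 scale. Members and symbols of the Gm-number or Rik kind were left out. Among those genes, the ones most like Cish were Tnfrsf8 (r = 0.9996), Gzmb (0.999) and Lag3 (0.9987). Those most like Socs1 were Ifng (0.991), Bst2 (0.9855) and Car1 (0.9855). Those most like Socs3 were Eomes (0.986), Oasl1 (0.978) and Ccrl2 (0.972), and those most like Socs4 were Kbtbd2, Vamp2 and Acbd5 (0.998 each). The other 4 members varied too little over these libraries for this measure.

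In the mouse libraries, labelled as spleen CD4 T cells but with neutrophil markers summing to more TPM than T cell markers, no difference in a SOCS gene passed the test between the groups. The levels were set on a separately processed table and are given beside those of culture without a comparison. Socs3 was again first, at 149 TPM in the vehicle library, at 300, 238 and 154 TPM in the floxed mice given TRAIL and at 173 and 176 TPM in the libraries labelled Lck Cre. The floxed TRAIL libraries were all above the vehicle library, but 1 of them lay below both Lck Cre libraries. The log2 difference between floxed TRAIL and vehicle was 0.58, with a 95% interval of -0.36 to 1.52 and adjusted p = 0.972. Between the Lck Cre and the floxed libraries it was -0.35 (adjusted p = 0.99985). Within lane 2 the first difference was 1.01 with 1 library on each side. The second was -0.79 within lane 2 and -0.12 within lane 4.

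Cish was at 16.4 TPM in the vehicle library, at 7.84, 14.2 and 17.7 TPM in the floxed mice given TRAIL, and at 14.02 and 19.9 TPM in the libraries labelled Lck Cre. All groups overlapped. Its difference between floxed TRAIL and vehicle was -0.36 (95% interval -1.55 to 0.84, adjusted p = 0.972), and -0.98 within lane 2. Between Lck Cre and floxed TRAIL it was 0.38 (-0.56 to 1.33, adjusted p = 0.99985), with 0.76 within lane 2 and 0.31 within lane 4. These intervals include both no change and changes of more than 1 on the log2 scale.

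Socs1 was at 6.85 TPM in the vehicle library, at 2.48, 11.6 and 8.81 TPM with TRAIL in floxed mice, and at 5.56 and 8.07 TPM under the Lck Cre label. Its differences were -0.06 and 0.03, and the second was 0.91 within lane 2 and -0.29 within lane 4. Socs2 was at 6.74 TPM, at 4.00, 12.6 and 7.65 TPM, and at 4.86 and 9.11 TPM in the same order. Socs4 varied least, at 46.1 TPM, at 47.5, 46.4 and 52.1 TPM, and at 44.0 and 53.2 TPM. Its difference between Lck Cre and floxed TRAIL was -0.01 with a 95% interval of -0.45 to 0.44. Socs6 ranged from 18.9 to 25.7 TPM, Socs5 from 8.60 to 19.9 TPM and Socs7 from 7.04 to 12.5 TPM over the 6 libraries.

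Of the 8 members, 0 were higher and 0 lower in either mouse comparison, and the background was the same, with 0% of 14176 tested genes called in either direction. At an unadjusted p under 0.05, limma counted 566 genes for TRAIL against vehicle and 106 for Lck Cre against floxed. No member was among them, and the lowest unadjusted p of a member was 0.180, for Socs3. Limma's voom method on recovered reads also called 0 genes. The vehicle group is 1 library, taken to have the spread of the other groups.

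Sequencing lane, by contrast, went with differences that passed the test. The vehicle library and replicate 1 of both other groups were on lane 2, and the remaining 3 libraries were on lane 4. Socs7 was at 7.04 to 8.15 TPM on lane 2 and 11.5 to 12.5 TPM on lane 4. Socs1 was at 2.48 to 6.85 and 8.07 to 11.6 TPM and Socs2 at 4.00 to 6.74 and 7.65 to 12.6 TPM. The lanes did not overlap for these 3 genes, and how many of all tested genes also had the lanes apart was not counted. A fit with group and lane, chosen after seeing the data, left 2 residual degrees of freedom. In that limma fit lane 4 was higher for Cish (0.74, adjusted p = 0.0440), Socs2 (0.98, adjusted p = 0.0489), Socs5 (0.76, adjusted p = 0.0328) and Socs7 (0.61, adjusted p = 0.0363). Socs1 did not pass (1.16, adjusted p = 0.0580), nor did Socs3 (-0.36), Socs4 (0.14) and Socs6 (-0.01). The 4 higher and 0 lower members stand beside 20.9% of tested genes higher and 6.53% lower on lane 4. Summed neutrophil markers were 72946 to 96566 TPM on lane 2 and 17660 to 26599 TPM on lane 4. Erythroid and platelet markers were 5219 to 21569 TPM on lane 2 and 1688 to 3643 TPM on lane 4. Their part in the SOCS values was not tested.

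**Figure D5:**
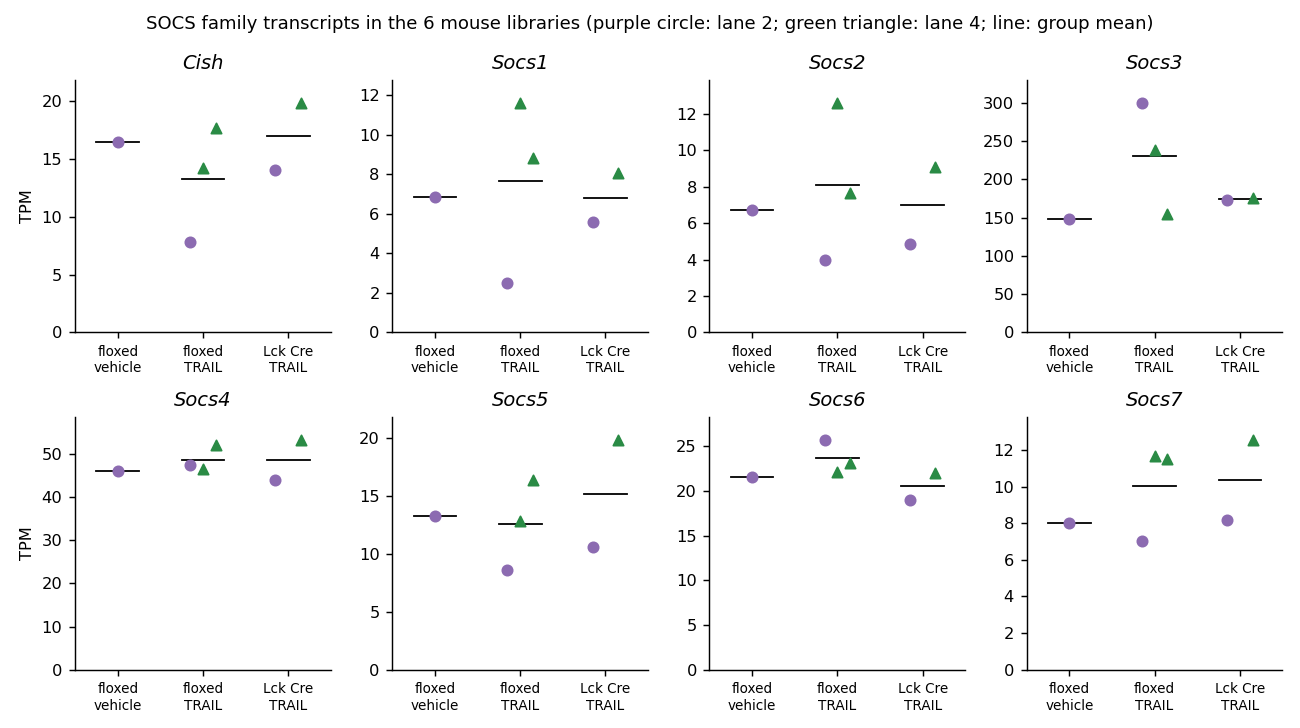
TPM of each SOCS family gene (vertical axes, each from 0) in the 6 mouse libraries, by group on the horizontal axis. Circles are lane 2 and triangles lane 4, and lines are group means. Socs7 is at 7.04 to 8.15 TPM in the lane 2 libraries and at 11.5 to 12.5 TPM in the lane 4 libraries. The vehicle group has no library on lane 4.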

How the data were processed

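Total RNA of 14 libraries was prepared with the SureSelect XT HS2 mRNA kit, per the labels' protocols. The deposited culture values are labelled TPM, per the file headers. The mouse unit was inferred, since each deposited column sums to 1000000. The authors' log2 fold changes and p-values are in the same tables, per the file headers. Per the submitters' processing notes, the authors used the build GRCm38.p6 and, among other tools, HISAT2 2.1.0, StringTie 2.1.4 and DESeq2 1.26.0. Whether counting used strand is not given in the sources used here, so reads of Cish and of its antisense neighbour Gm17041 cannot be told apart. A further 14 deposited per-sample columns were not used.

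Tests used limma 3.58.1 in R 4.3.3 (variance trend) on log2(TPM + 1), which understates changes of low genes. Each experiment had 1 fit with 1 coefficient per group (5 residual degrees of freedom in culture, 3 in mice), over genes averaging at least 1 TPM. The script was tested on simulated data. Reads were recovered from TPM times length for limma's voom. Other alternatives were rescaling, a pseudocount of 0.1, no filter, the compared groups alone, a replicate block, lane, and leaving out each library. Transcript lengths are from GENCODE M21 on GRCm38. Members and lists were chosen with earlier results of these data known. Named were all 8 members, the 2 highest and 2 lowest called genes of each list in each comparison, and the 3 genes most like each member with a log2 range of at least 1. Some genes of the lists are not reported here.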

Additional observations from a re-analysis of the deposited data

How the results depend on the processing

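With 8 members in 5 comparisons, 406 recomputed member values were counted as unchanged, 15 lost a call, 9 gained one and 33 turned in sign. Of those 33, 1 had been called as reported, Socs5 with TRAIL added. For a fit, unchanged meant the same direction and side of the threshold. For a difference within 1 lane it meant a value within 1 SD of the reported one, whatever the sign. A further 9 differences within a lane moved by more than that SD. Cish kept its direction and call in all 3 culture comparisons under every alternative run, and so did Socs1 and Socs3 against medium with TRAIL. With only the 2 groups' libraries in the fit, stimulation with TRAIL against medium gave 5078 genes and 5 members, against 2411 and 3 as reported, and Socs2 (adjusted p = 0.0344) and Socs6 (adjusted p = 0.0448) then passed. A fit by limma with the replicate number as a block gave 1356 genes there, and it changed no other count of calls by over 1.5 times. Replicate numbers were taken from the titles, and deviations of culture libraries with the same number had correlations of -0.13 to 0.08. The bracketed name of medium replicate 2 carries another number, and pairing by the bracketed names was not tested. In mice the 2 same-numbered pairs, which also share lanes, had 0.70 and 0.22.

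Leaving out 1 library at a time gave 9330 to 11392 genes and 6 to 7 members for stimulation against medium, 10021 to 11341 genes and 4 to 6 members for TRAIL added, and 915 to 1535 genes and 3 to 3 members for TRAIL against medium. The lowest of these, 915 and 1109 genes, came without medium replicate 1 and 2. Both mouse comparisons stayed at 0. Socs3 passed in stimulation against medium without medium replicate 2 (adjusted p = 0.0417) and with voom (adjusted p = 0.00952). Voom also called Socs1 with TRAIL added (adjusted p = 0.0299) and lost Socs6 (adjusted p = 0.160).

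Signs turned in the fits as follows. Socs7 went to 0.27 (rescaled) and 0.088 (voom) in stimulation against medium, to -0.18 (rescaled) and -0.066 (voom) with TRAIL added, and to -0.0080 (block) for TRAIL against medium. Socs5 went to -0.080 (rescaled) with TRAIL added. Over the fits without 1 library, Socs7 ranged from -0.18 to 0.038, -0.019 to 0.20 and -0.011 to 0.046 in these 3 comparisons. For floxed TRAIL against vehicle, the block and lane terms gave -0.47 and -0.54 for Socs2, -0.033 and -0.020 for Socs4 and -0.14 and -0.14 for Socs7. Without 1 library, Socs1 ranged from -0.42 to 0.50, Socs2 from -0.23 to 0.49 and Socs5 from -0.30 to 0.12. For Lck Cre against floxed, Socs4 went to 0.0043 (rescaled), 0.044 (block), 0.040 (voom) and 0.019 (lane), and Socs2 to 0.040 (lane). Without 1 library the ranges there were -0.53 to 0.40 for Socs1, -0.52 to 0.27 for Socs2, -0.14 to 0.13 for Socs4, -0.19 to 0.66 for Socs5 and -0.24 to 0.32 for Socs7. The Socs5 call with TRAIL added was also lost without the filter (adjusted p = 0.0666), with the compared groups alone (0.0746), with the block (0.0648) and in 5 of the 6 fits without 1 library. The cause of these changes was not tested. The mouse group comparisons rest on 1 vehicle library and 3 residual degrees of freedom, and the thinnest member had 97 reads there. What limited the calls was not tested.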
